A study of Mus musculus with 17 samples.

Results

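Ccl2, Ccl7, Ccl12, Ccl8, Ccl3, Ccl4 and Ccl5, 7 secreted CC chemokines that attract monocytes, T cells and natural killer (NK) cells, were followed in AB12 mesothelioma tumors together with 2 CC chemokine receptors, Ccr1 and Ccr2. The 9 genes were taken by name out of 55450 genes counted. RNA of whole tumors was sequenced from female BALB/c mice that were 8 weeks old and had received AB12 cells, a murine malignant mesothelioma line, by intraperitoneal injection. Untreated tumors were taken on d6 (early phase, n=3), d10 (intermediate phase, n=5) and d14 (advanced phase, n=3). Tumors of mice given anti CTLA-4, the blocking antibody clone 9D9 at 200 µg per intraperitoneal injection, were taken on d10 (n=3) and d14 (n=3). The labels give 4 injections at 2 per week for both treated groups, while the text of the study places those of the treated d14 tumors on d6 and d10. How many injections preceded collection of the treated d10 tumors is not given in the sources used here. All 17 tumors came from separate mice, grew from 1 cell line and were not sorted, so each value covers tumor cells, stroma and infiltrating cells together.

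CC chemokines are small secreted proteins that guide leukocytes along gradients by binding receptors with 7 membrane-spanning segments. Ccl2, Ccl7 and Ccl12 are the monocyte chemoattractants that bind Ccr2, the receptor that classical monocytes use to leave the bone marrow. Ccl3, Ccl4 and Ccl5 are made by activated T cells, NK cells and macrophages. Ccl3 and Ccl5 bind Ccr1, and Ccl8 acts in the mouse on Ccr8. In tumors, such ligands are known for drawing monocytes that become macrophages, and for drawing effector T cells.

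The ligands lie in 2 groups on chromosome 11 of GRCm38 (Gencode vM21 annotation, values over all annotated exons of each gene). Ccl2 (ENSMUSG00000035385.5, chr11:82035571-82037453), Ccl7 (ENSMUSG00000035373.2, chr11:82045712-82047525), Ccl12 (ENSMUSG00000035352.3, chr11:82101845-82103400) and Ccl8 (ENSMUSG00000009185.2, chr11:82115185-82116799) follow each other on the plus strand within 81.2 kb. Ccl5 (ENSMUSG00000035042.2, chr11:83525778-83530518, minus strand), Ccl3 (ENSMUSG00000000982.5, chr11:83647844-83649355, minus strand) and Ccl4 (ENSMUSG00000018930.3, chr11:83662584-83664683, plus strand) lie within 139 kb, and 1409 kb separate both groups. Ccr1 (ENSMUSG00000025804.5, chr9:123962124-123968692, minus strand) and Ccr2 (ENSMUSG00000049103.14, chr9:124101950-124113557, plus strand) lie on chromosome 9 within 151 kb. Of the 75-base stretches in the exons of Ccr2, 1.16% also occur in another gene, and none of the stretches of the other 8 genes does. An annotated gene, Gm17268, runs on the opposite strand over Ccl2 without sharing exon bases with it.

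The promoters of Ccl12 and Ccl8 are shown because these 2 neighboring genes took different courses. Both sequences are the 250 bases before the RefSeq start site on the plus strand of GRCm38.p6, chr11:82101595-82101844 for Ccl12 and chr11:82114935-82115184 for Ccl8, with the motif TATAAA in capitals.
Ccl12: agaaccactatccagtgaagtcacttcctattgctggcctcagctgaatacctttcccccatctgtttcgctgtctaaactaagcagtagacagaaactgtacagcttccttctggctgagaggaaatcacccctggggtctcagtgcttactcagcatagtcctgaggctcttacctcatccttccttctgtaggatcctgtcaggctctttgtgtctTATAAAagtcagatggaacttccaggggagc
Ccl8: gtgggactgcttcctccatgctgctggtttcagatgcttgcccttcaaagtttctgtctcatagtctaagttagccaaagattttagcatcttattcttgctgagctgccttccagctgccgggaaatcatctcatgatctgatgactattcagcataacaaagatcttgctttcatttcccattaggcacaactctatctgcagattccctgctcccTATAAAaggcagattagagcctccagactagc
TATAAA begins 31 bases before the start of Ccl12 and 32 bases before that of Ccl8, and 12.3% of 32536 windows of the same length hold it on either strand. Aligned with each other, the windows were identical in 57.8% of columns, and the other 9 pairs among the 5 promoters matched here (Ccl12, Ccl8, Ccl3, Ccr1 and Ccr2) were identical in 47.3% to 53.3%. Of further motifs searched on both strands, 2 are given here: GAAANNGAA, a core of the response element of interferon-stimulated genes (in 7.15% of all windows), and TGANTCA bound by AP-1 (6.73%). Neither window printed here holds one of them. Among the 5 promoters the first was found on the opposite strand in those of Ccl3 and Ccr2, with its outer end 39 and 86 bases before the start. The Ccr2 window, placed by the RefSeq start, ends at chr9:124102182, whereas the Gencode gene begins at chr9:124101950. The match in Ccr2 thus lies inside the Gencode gene. The letters of the motifs were settled after the sequences had been read, and a lack of them in a window of 250 bases says nothing of the factors.

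Between 46371577 and 96759833 reads per tumor were counted in genes (median 72413343), and every one of the 9 genes had at least 275 reads in each tumor. Levels are given as normalized CPM, reads of a gene for each 1000000 counted, with TMM scaling over all 17 libraries, as mean ± SD over tumors. By 781 pseudogenes and small RNA genes, the libraries fell into 3 sets. One held the d6 tumors and untreated d10 replicates 1 to 3, another untreated d10 replicates 4 and 5 with the treated d10 tumors, and the last all d14 tumors. With a cut into 2 sets, the latter 2 merged. Under the cut into 3, d14 cannot be told apart from its set, whereas d6 against d10 replicates 1 to 3, treated against untreated d14 tumors, and treated d10 tumors against d10 replicates 4 and 5 are comparisons inside a set. Among the 9 genes, Ccr2 alone passed the test between untreated d10 replicates 4 to 5 and 1 to 3 (log2 fold change −0.52, edgeR adjusted p = 0.0288) and none was called, while 7.89% of 17321 genes were called between these parts of the d10 group.

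The question of the untreated series was how the tumor microenvironment (TME) changed between growth phases. From d6 to d10 the ligands exchanged places. Ccl12 fell 5.37-fold, Ccl7 fell 2.71-fold and Ccl2 fell 2.57-fold, while Ccl5 rose 8.40-fold and Ccl4 rose 2.37-fold. These 5 of the 9 genes were called, that is, had an edgeR quasi-likelihood adjusted p (Benjamini-Hochberg over all genes tested) below 0.05 and a change over 2-fold. Of all 16866 genes tested, 7.45% were called, 4.79% higher and 2.66% lower. For 6 of the 9 genes the d6 and d10 tumors did not overlap, against 28.5% of all genes. With adjusted p alone, 6 of the 9 genes passed, against 17.5% of all genes. In whole tumors, fewer cells of a type and less RNA per cell cannot be told apart. The p-values measure the spread between tumors of separate mice, which among the d10 tumors also holds the difference between library sets.

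**Figure D1:**
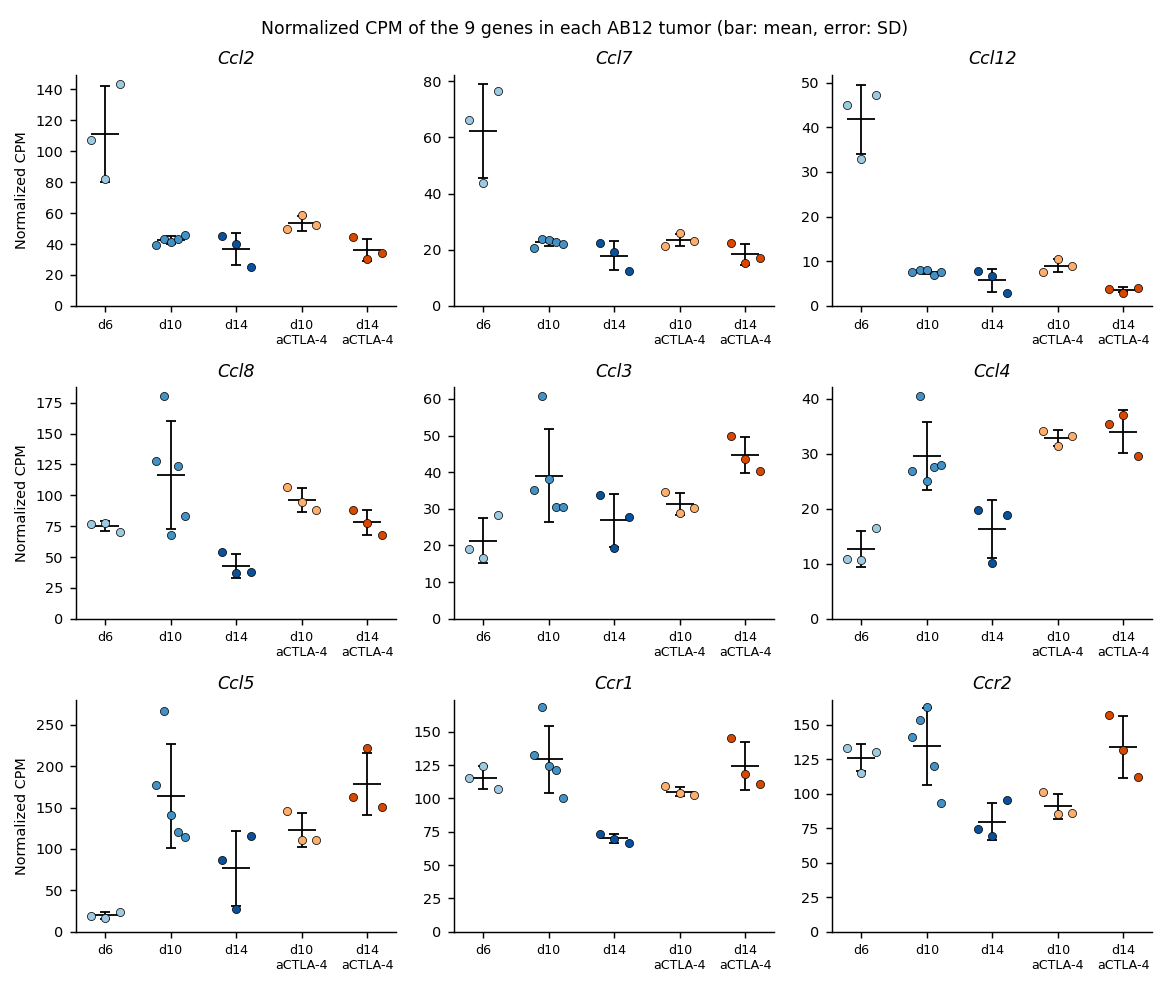
Normalized CPM (linear axis) of the 9 genes in each of the 17 tumors, 1 panel per gene. Points are tumors, bars are group means and error bars are SD. Ccl2, Ccl7 and Ccl12 were highest in all 3 d6 tumors, where Ccl5 stood at 16.6 to 24.4 against 26.9 to 267 in the other tumors.

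Ccl12, a mouse chemokine close to Ccl2, showed the steepest fall. It was at 45.1, 33.0 and 47.3 normalized CPM in the d6 tumors and at 7.58, 8.0, 8.13, 7.0 and 7.6 in the untreated d10 tumors. All 5 d10 tumors lay within a narrow band far below the lowest d6 tumor. The log2 fold change was −2.42 ± 0.14 (SE, edgeR adjusted p = 1.88e-05). At d14 the untreated tumors were at 7.78, 6.72 and 2.88, of which replicates 2 and 3 lay below every d10 tumor. The step from d10 to d14 did not pass the test (−0.40 ± 0.28, adjusted p = 0.323), and from d6 to d14 Ccl12 fell 7.15-fold (−2.84 ± 0.33, adjusted p = 0.000222).

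Ccl2, the main attractant of Ccr2-bearing monocytes, was at 107, 82.3 and 144 normalized CPM in the d6 tumors and at 39.3, 43.0, 41.3, 43.5 and 45.9 at d10. The lowest d6 tumor stood well above the highest d10 tumor. The fall was −1.36 ± 0.16 on the log2 scale (edgeR adjusted p = 0.00073). The d14 tumors were at 45.2, 40.3 and 25.1, of which replicate 3 was below all d10 tumors and the others among them (−0.21 ± 0.18, adjusted p = 0.417).

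Ccl7, a ligand of Ccr1 and Ccr2 whose gene follows Ccl2, ran parallel to it at a lower level. Its values were 66.3, 43.8 and 76.6 normalized CPM at d6, 20.6, 23.8, 23.6, 22.9 and 22.2 at d10, and 22.3, 19.2 and 12.3 at d14. Again the d6 tumors were apart from all others and the d10 and d14 tumors overlapped. From d6 to d10 it fell by 1.44 ± 0.16 on the log2 scale (edgeR adjusted p = 0.000625), and the step to d14, at −0.34 ± 0.18, did not pass (adjusted p = 0.206). Relative to d6, untreated d14 tumors had 3.43-fold less Ccl7 and 2.98-fold less Ccl2, both called. Per kilobase of exon, Ccl2 exceeded Ccl7 by 1.26-fold at d6, 1.33-fold at d10 and 1.45-fold at d14.

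These 3 ligands were also lower at d10 when each tumor was left out in turn: the log2 fold changes ran from −2.57 to −2.32 for Ccl12, from −1.64 to −1.26 for Ccl7 and from −1.54 to −1.13 for Ccl2, and no call was lost. With only d10 replicates 1 to 3, which share a library set with the d6 tumors, they were −2.38, −1.43 and −1.41. Other genes moved with them. All 16 type I interferon (IFN) genes of a fixed list were called lower at d10, with a median log2 fold change of −2.86 against 0.03 over all genes, and their summed level was 5005 to 9284 normalized CPM at d6 and 1049 to 1639 at d10. Of 6 markers of resident peritoneal macrophages, 5 were called lower (summed level 410 to 573 at d6 and 69.4 to 163 at d10). Of 10 markers of monocytes and macrophages, 1 was called higher, 5 passed the test as higher and none passed as lower. Their sum was 1877 to 2037 at d6 and 2455 to 3725 at d10. Of 6 markers of classical monocytes, which carry Ccr2, 1 was called in each direction and 2 passed the test as lower. F13a1 was called higher and 1 other marker was called lower. Ly6c2 passed as lower within 2-fold, from 21.7 to 27.8 at d6 to 8.87 to 19.2 at d10. By log2 fold change, 3 of these 6 markers were higher and 3 lower at d10. Their sum was 596 to 630 at d6 and 383 to 626 at d10. For each 100 CPM of those macrophage markers there were 5.74 ± 1.70 CPM of Ccl2 at d6 and 1.43 ± 0.307 at d10. The part of any of these lists in the fall of the 3 ligands was not tested.

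Ccl8, the last gene of the same group, did not share this course. It was at 77.2, 78.0 and 70.2 normalized CPM at d6 and at 128, 180, 68.1, 123 and 83.1 at d10. One d10 tumor, replicate 3, lay below all d6 tumors and the remaining 4 above them. The difference did not pass the test (0.65 ± 0.27 on the log2 scale, edgeR adjusted p = 0.121), and passed it within 2-fold without replicate 3 (0.79, adjusted p = 0.0340). At d14 the values were 53.9, 36.7 and 37.7, under all d6 and all d10 tumors. From d10 to d14 Ccl8 fell 2.72-fold (−1.44 ± 0.30, adjusted p = 0.0132), a call that was lost without untreated d14 replicate 2 (−1.35, adjusted p = 0.0737). From d6 to d14 the fall was −0.79 ± 0.15 (adjusted p = 0.00204), within 2-fold. Per kilobase of exon, the ratio of Ccl8 to its neighbor Ccl12 averaged 1.95 at d6 (1.56 to 2.48 over the tumors), 16.04 at d10 (8.81 to 23.6) and 8.93 at d14 (5.74 to 13.8), so the lowest d10 and d14 tumors exceeded the highest d6 tumor.

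Ccl5, made above all by activated T and NK cells, made the largest step of the 9 genes. The d6 tumors had 18.5, 16.6 and 24.4 normalized CPM and the d10 tumors 178, 267, 141, 120 and 115. The lowest d10 tumor was thus far above the highest d6 tumor, and d10 replicate 2 was the highest of all 17 tumors. The log2 fold change was 3.07 ± 0.31 (edgeR adjusted p = 0.000378). At d14 the untreated tumors scattered widely, at 86.7, 26.9 and 116, with replicate 2 close to the d6 level and replicate 3 inside the d10 range. The lower mean at d14 did not pass the test against d10 (−1.11 ± 0.43, adjusted p = 0.0965, or 0.0314 with DESeq2 and 0.0272 with all 5 groups in one edgeR fit) and was still 3.89-fold higher than at d6 (1.96 ± 0.43, adjusted p = 0.0051).

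Ccl4, of the same gene group as Ccl5 and like it a product of activated T cells, was at 10.8, 10.7 and 16.5 normalized CPM at d6 and at 26.8, 40.5, 25.1, 27.6 and 27.9 at d10, without overlap. It rose by 1.24 ± 0.21 on the log2 scale (edgeR adjusted p = 0.00376). In untreated d14 tumors it was back at 19.8, 10.2 and 18.9, below every d10 tumor. The difference from d10 was −0.86 ± 0.23 (adjusted p = 0.0313), within 2-fold. That test was no longer passed without d10 replicate 1 or 2 or any 1 of the d14 tumors, where adjusted p reached 0.103.

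Ccl3, which binds Ccr1, changed less. It had 19.2, 16.6 and 28.2 normalized CPM at d6, and 35.1, 60.8, 38.1, 30.6 and 30.5 at d10. The groups did not overlap, but the highest d6 tumor, replicate 3, nearly reached the lowest d10 tumors. The difference of 0.89 ± 0.26 (edgeR adjusted p = 0.0427) passed the test within 2-fold. It depended on single tumors. Adjusted p ran from 0.0318 to 0.162 with 1 tumor left out and exceeded 0.05 without d6 replicate 1 or 2 or d10 replicate 1, 2 or 3, and without d6 replicate 3 the log2 fold change was 1.15 and Ccl3 was called. It was also called with d10 replicates 1 to 3 only, inside a library set (1.09, adjusted p = 0.00921), and did not pass with replicates 4 and 5 only (0.53, adjusted p = 0.0655). In the untreated d14 tumors it was at 33.7, 19.3 and 27.7, overlapping both earlier phases.

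T cell markers moved with Ccl4 and Ccl5: 7 of 10 were called higher at d10 than at d6, 9 of 10 passed the test, and their summed level was 91.1 to 95.6 normalized CPM at d6 and 287 to 404 at d10. At d14, 6 of 10 were called lower than at d10 and the sum was 116 to 206. For each 100 CPM of T cell markers there were 21.1 ± 3.95 CPM of Ccl5 at d6 (18.2 to 25.6) and 49.5 ± 19.3 at d10 (29.8 to 77.3), without overlap between tumors. The same ratio for Ccl4 was 13.5 at d6 and 8.83 at d10. The share of the marker increase in the rise of Ccl4 and Ccl5 was not tested. Of the NK cell markers, 2 of 5 tested were called higher at d10, and the sums overlapped, with 40.5 to 59.3 at d6 and 40.7 to 66.7 at d10.

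**Figure D2:**
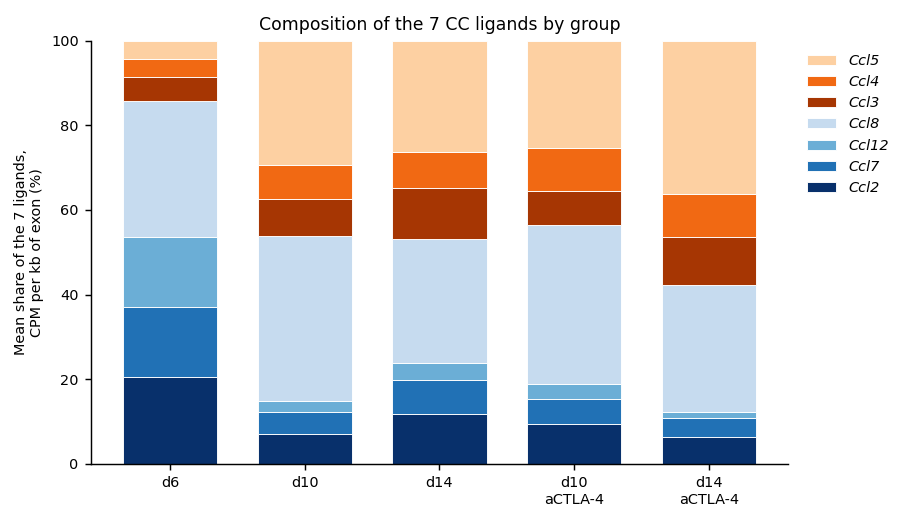
Mean share (percent) of each of the 7 ligands in their summed level per kilobase of exon, as stacked bars for the 5 groups. Ccl2, Ccl7 and Ccl12 took 20.6%, 16.4% and 16.6% at d6 and 6.92%, 5.19% and 2.62% at d10, while Ccl5 went from 4.40% to 29.4%.

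Levels of the ligands were compared with each other only per kilobase of exon. In the d6 tumors the order was Ccl8 (147 CPM per kilobase), Ccl2 (97.6), Ccl12 (77.8), Ccl7 (77.7), Ccl3 (27.9), Ccl5 (20.7) and Ccl4 (19.2). In the untreated d10 tumors it was Ccl8 (228), Ccl5 (171), Ccl3 (51.0), Ccl4 (44.8), Ccl2 (37.5), Ccl7 (28.2) and Ccl12 (14.3). Thus, by group means, the monocyte attractants that stood next to Ccl8 at d6 stood last at d10, and Ccl8 led at both times. In untreated d10 replicate 3, Ccl5 (147) was above Ccl8 (133). The sum over the 7 ligands was 468 ± 69.2 at d6 and 575 ± 168 at d10, within the spread between tumors, and 289 ± 70.7 at d14. The plot of ligand composition shows these shares by group.

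The receptors Ccr1 and Ccr2, both carried by monocytes and macrophages, did not pass the test from d6 to d10 and fell from d10 to d14. Ccr2 was at 133, 115 and 130 normalized CPM at d6, 142, 154, 163, 120 and 93.3 at d10, and 74.4, 69.7 and 95.2 at d14. The d10 tumors lay on both sides of the d6 tumors, and the highest d14 tumor was just above d10 replicate 5. Between d6 and d10 tumors the log2 difference was 0.11 ± 0.17 (edgeR adjusted p = 0.676). The fall to d14 was −0.76 ± 0.18 (adjusted p = 0.0209), and was lost without d10 replicate 2 or d14 replicate 1 or 2 (adjusted p up to 0.106). From d6 to d14 Ccr2 fell by 0.65 ± 0.12 (adjusted p = 0.00213). With d10 replicates 4 and 5 alone the difference between d10 and d6 turned to −0.23 and did not pass the test.

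Ccr1, which answers to Ccl3, Ccl5 and Ccl7, was at 115, 124 and 107 normalized CPM at d6 and at 133, 169, 124, 121 and 99.97 at d10. These ranges overlapped (0.19 ± 0.15 on the log2 scale, edgeR adjusted p = 0.422). At d14 the tumors were close together at 73.3, 69.6 and 66.9, below every earlier tumor. Ccr1 fell by 0.89 ± 0.15 from d10 to d14 (adjusted p = 0.00757) and by 0.71 ± 0.08 from d6 to d14 (adjusted p = 0.00022), in each case within 2-fold and with no pass lost when 1 tumor was left out.

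Between untreated d14 and d10 tumors, all 9 genes had a negative log2 fold change. Ccl8 was called, and Ccl4, Ccr1 and Ccr2 passed the test within 2-fold. Over all 17659 genes tested, 7.23% were called (3.45% lower), 19.7% passed the test (9.87% in the lower direction), and the median log2 fold change was −0.04 against −0.76 over the 9 genes. Tumors of both groups did not overlap for 3 of the 9 genes, against 28.3% of all genes. Macrophage markers were lower as well, with 2 of 10 called and a summed level of 1109 to 2145 at d14 against 2455 to 3725 at d10, and their part in these differences was not tested. For each 100 CPM of macrophage markers, Ccr1 was at 4.22 CPM at d10 and 4.65 at d14, and Ccr2 was at 4.41 and 5.11. Between d14 and d6, 4 of the 9 genes were called, against 19.0% of 17172 genes: Ccl12, Ccl7 and Ccl2 lower (8.81% of all genes) and Ccl5 higher (10.2%). At adjusted p alone 7 of the 9 passed, against 51.5% of all genes, and 7 did not overlap, against 61.1%.

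**Figure D3:**
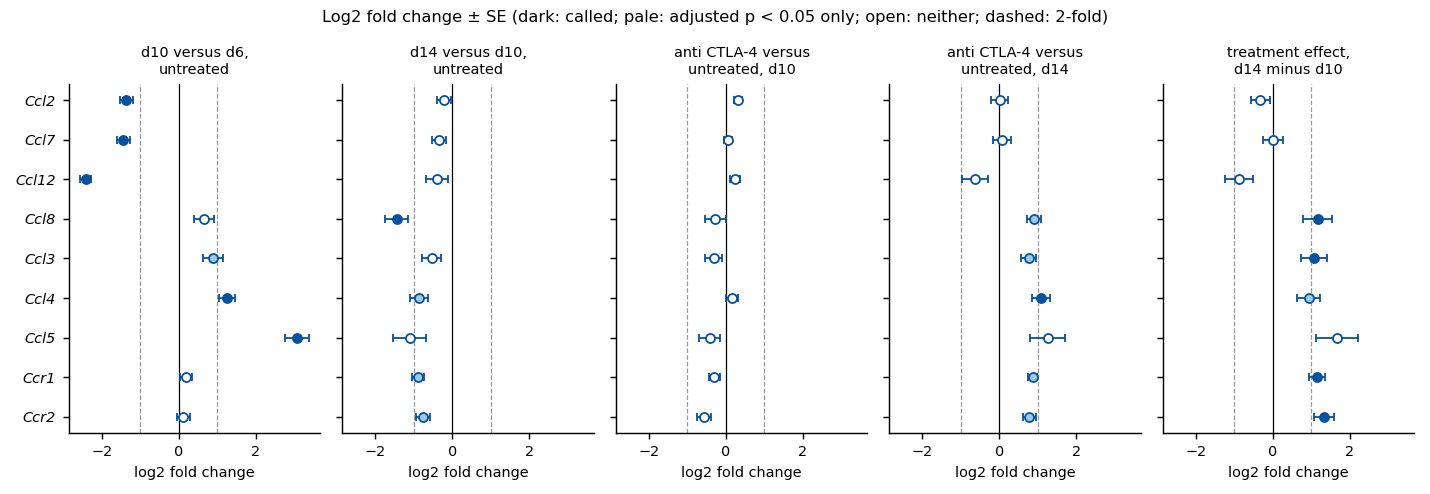
Log2 fold changes (points) with standard errors (bars) of the 9 genes. Shown are untreated d10 against d6 and d14 against d10, treated against untreated at d10 and d14, and the treatment effect at d14 minus that at d10. Dark points are genes called, pale points passed the test within 2-fold, and open points did not pass. The fall of Ccl2, Ccl7 and Ccl12 and the rise of Ccl5 from d6 stand out, and at d14 treated tumors lie above untreated ones for Ccl3, Ccl4, Ccl8, Ccr1 and Ccr2, which passed the test, and for Ccl5 (1.25), which did not.

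The treated groups addressed whether anti CTLA-4 altered the TME at d10 and d14. At d14 treated tumors had more Ccl4 (2.13-fold), Ccl8 (1.87-fold), Ccr1 (1.83-fold), Ccr2 (1.72-fold) and Ccl3 (1.69-fold) than untreated ones. These 5 passed the test, and Ccl4 alone was called, against 11.5% of 18062 genes called (9.07% higher) and 32.4% that passed (17.7% higher). The median log2 fold change of the 9 genes was 0.78 and that of all genes was −0.00. For 6 of the 9 genes the treated and untreated d14 tumors did not overlap, against 51.9% of all genes. Ccl2, Ccl7 and Ccl12 did not pass the test.

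Ccl4 had 35.3, 37.0 and 29.6 normalized CPM in treated d14 tumors against 19.8, 10.2 and 18.9 in untreated ones. The lowest treated tumor was well above the highest untreated tumor. The log2 fold change was 1.09 ± 0.24 (edgeR adjusted p = 0.014), and without untreated d14 replicate 2, the lowest of the 6, it was 0.83 (adjusted p = 0.00791) and so within 2-fold. Ccl8 was at 88.5, 77.7 and 68.2 in treated d14 tumors, all above the untreated 53.9, 36.7 and 37.7 (0.90 ± 0.17, adjusted p = 0.00993). It was called without untreated d14 replicate 1 (1.11) or treated d14 replicate 3 (1.04). Ccl3 was at 49.9, 43.6 and 40.3 in treated d14 tumors, above all untreated d14 tumors (0.76 ± 0.20, adjusted p = 0.0231), and did not pass without treated d14 replicate 1 (0.70, adjusted p = 0.0732) or 2 (0.81, adjusted p = 0.0590).

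Ccl5 was at 163, 222 and 151 normalized CPM in treated d14 tumors. All 3 were above the untreated d14 tumors, but the spread of the latter, from 26.9 to 116, left the difference of 1.25 ± 0.45 on the log2 scale outside the test (edgeR adjusted p = 0.0667). Without untreated d14 replicate 3, the highest of its group, it was 1.71 (adjusted p = 0.0238) and Ccl5 was called, and without replicate 2, the lowest, it was 0.84 (adjusted p = 0.0248). Ccl5 was also called with all genes that had at least 1 count (1.25, adjusted p = 0.0205) and with all 5 groups in one fit (1.22, adjusted p = 0.0318).

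Both receptors were higher in every treated d14 tumor than in any untreated one. Ccr1 was at 145, 118 and 111 normalized CPM (0.87 ± 0.11 on the log2 scale, edgeR adjusted p = 0.00495). Ccr2 was at 157, 132 and 112 (0.78 ± 0.16, adjusted p = 0.0111). Neither lost the pass when 1 tumor was left out, and neither exceeded 2-fold.

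For the monocyte attractants no difference passed the test at d14. Ccl2 was at 44.3, 30.3 and 34.3 normalized CPM in treated d14 tumors, inside the range of the untreated ones (0.01 ± 0.23 on the log2 scale, edgeR adjusted p = 0.972). Ccl7 was at 22.4, 15.4 and 17.2, which also overlapped (0.07 ± 0.23, adjusted p = 0.841). Ccl12 was at 3.88, 2.98 and 4.08, of which all 3 lay below untreated d14 replicates 1 and 2 and above replicate 3 (−0.63 ± 0.34, adjusted p = 0.189).

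Macrophage and T cell markers were also higher in treated d14 tumors: 7 of 10 macrophage markers and 6 of 10 T cell markers were called, and all 10 of each passed the test. Their sums were 3271 to 3890 against 1109 to 2145 normalized CPM for macrophages and 308 to 355 against 116 to 206 for T cells. Of 6 fibroblast markers, 5 were called higher, and 14 of 16 type I IFN genes passed the test in the lower direction with none called. Sums of neutrophil markers were 327 to 413 against 142 to 169 (3 of 7 called higher). Those of endothelial markers were 152 to 181 against 93.7 to 112 (none called, 3 of 6 passed as higher). The sums of mesothelial markers were lower, 775 to 869 against 1143 to 1264, though 2 of 6 were called higher. For each 100 CPM of macrophage markers there were 3.39 CPM of Ccr1 in treated and 4.65 in untreated d14 tumors, and 3.64 and 5.11 CPM of Ccr2. Ccl5 came to 52.9 ± 8.31 CPM for each 100 CPM of T cell markers in treated and 43.0 ± 17.5 in untreated d14 tumors, which is within the spread. How far these cell markers account for the higher chemokine and receptor levels was not tested.

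**Figure D4:**
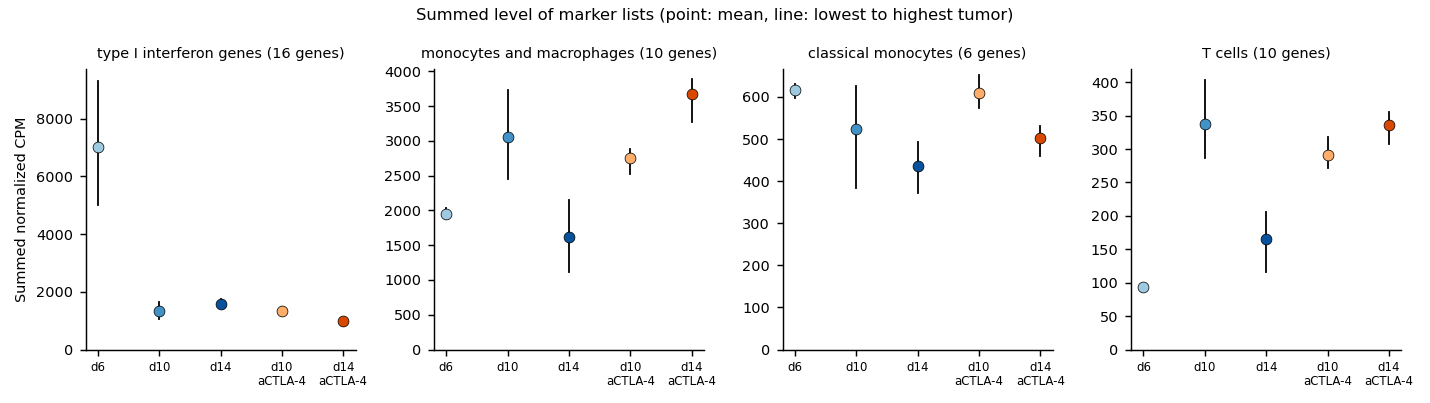
Summed normalized CPM (linear axis) of marker genes for type I IFN response, macrophages, classical monocytes and T cells. Points are group means and lines run from the lowest to the highest tumor. Type I IFN sums were highest at d6 (5005 to 9284), and T cell sums lay between 91.1 and 95.6 at d6 and between 287 and 404 in untreated d10 tumors.

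At d10 none of the 9 genes passed the test between treated and untreated tumors with edgeR, and none did with DESeq2. Over all 17258 genes tested edgeR called 0.0174%. Unadjusted p was below 0.05 for 2 of the 9 genes and for 13.5% of all genes. Ccl2 was at 49.5, 58.4 and 52.0 normalized CPM in treated d10 tumors, all above the untreated d10 tumors and the only gene of the 9 without overlap, against 8.44% of all genes (0.32 ± 0.10 on the log2 scale, edgeR adjusted p = 0.27, and 0.00883 before adjustment). Ccr2 was at 101, 85.3 and 85.9, below all untreated d10 tumors but replicate 5, which lay among them (−0.57 ± 0.17, edgeR adjusted p = 0.27, and 0.00893 before adjustment). Against d10 replicates 1 to 3 alone, 4 genes passed: Ccr2 (−0.74, adjusted p = 0.0014), Ccl2 (0.38, adjusted p = 0.0144), Ccr1 (−0.42, adjusted p = 0.022) and Ccl5 (−0.66, adjusted p = 0.0399). In that fit 2526 of 16963 genes passed as higher and 2494 as lower. Against replicates 4 and 5, which share the library set of the treated d10 tumors, none of the 9 genes passed. In that fit 68 of 17125 genes passed as higher and 40 as lower.

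The other genes in treated d10 tumors overlapped with untreated d10 tumors. Ccl5 was at 146, 111 and 111 normalized CPM, Ccl4 at 34.0, 31.3 and 33.2, and Ccl3 at 34.7, 28.9 and 30.2. Ccl7 was at 21.4, 25.8 and 23.2, Ccl12 at 7.70, 10.5 and 8.93, and Ccl8 at 107, 94.5 and 87.9. Ccr1 was at 109, 104 and 102, near the lower end of the untreated d10 range.

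The treatment effect itself differed between d14 and d10 for several genes, as tested by the interaction of treatment and day in 1 edgeR model of the 4 groups. The effect at d14 exceeded that at d10 by 1.34 ± 0.26 on the log2 scale for Ccr2 (adjusted p = 0.00533), 1.15 ± 0.20 for Ccr1 (adjusted p = 0.00415), 1.16 ± 0.37 for Ccl8 (adjusted p = 0.0429) and 1.07 ± 0.33 for Ccl3 (adjusted p = 0.0367). These 4 of the 9 were called, against 11.8% of 18574 genes (9.67% higher), and 17.7% of all genes passed the test (11.9% higher), with a median of 1.07 over the 9 genes and −0.02 over all genes. Ccl4 passed within 2-fold (0.93 ± 0.29, adjusted p = 0.0421), and Ccl5, with the largest difference, did not pass (1.66 ± 0.55, adjusted p = 0.0518). Ccl5 was called with DESeq2 (adjusted p = 0.0151), without TMM (0.0488), without the filter on low counts (0.0321), with all 5 groups in one fit (0.0372) and with d10 replicates 1 to 3 only (0.0161), and without d10 replicate 4 (0.0406) or 5 (0.0374) or untreated d14 replicate 3 (0.0240). With d10 replicates 4 and 5 only it was 1.2 (0.135). Ccl2 and Ccl7 were at −0.32 ± 0.25 and 0.00 ± 0.25. Ccl12 was at −0.88 ± 0.36 (adjusted p = 0.106), and without untreated d14 replicate 3 it was called lower (−1.23, adjusted p = 0.0040). Ccr1 and Ccr2 kept their calls with any 1 tumor left out, whereas adjusted p rose to 0.106 for Ccl3, 0.111 for Ccl4 and 0.119 for Ccl8. Ccl3 kept its call without d10 replicate 1, 3, 4 or 5, untreated d14 replicate 1 or treated d14 replicate 3, and lost it in the other 8 of 14 fits, while Ccl8 kept it only without d10 replicate 3 or 5 or untreated d14 replicate 1 and lost it in 11 of 14. With only d10 replicates 4 and 5, the untreated tumors of the same library set as the treated d10 tumors, Ccr2 (1.02) and Ccl8 (1.0) kept their calls, Ccr1 passed within 2-fold (0.94, adjusted p = 0.00557) and Ccl3 (0.73, adjusted p = 0.0529) and Ccl4 (0.85, adjusted p = 0.0522) did not pass. This test sets d10 against d14 across library sets, and each treatment effect at d14 was measured inside a set. In the interaction over all tumors of the 4 groups, cell markers moved too. Called higher were 7 of 10 macrophage markers (median 1.24), 8 of 10 T cell markers (1.40) and 6 of 6 fibroblast markers (1.62). So were 5 of 6 B cell and 4 of 7 neutrophil markers. Of 16 type I IFN genes none was called and 3 passed as lower. The part of these markers in the differences of the 9 genes was not tested.

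Between both treated groups, 1 of the 9 genes was called against 11.5% of 17791 genes (2.48% lower). It was Ccl12, 2.45-fold lower at d14 (−1.29 ± 0.16 on the log2 scale, edgeR adjusted p = 0.000668), with all 3 treated d14 tumors below all treated d10 tumors. Ccr2 (0.58 ± 0.13), Ccl5 (0.56 ± 0.16) and Ccl3 (0.53 ± 0.10) passed as higher and Ccl2 (−0.54 ± 0.14) as lower, all within 2-fold. With all 5 groups in one fit Ccl2 (adjusted p = 0.0555), Ccl3 (0.139) and Ccl5 (0.308) no longer passed. With Ccl12 these made 5 of 9 that passed, against 46.6% of all genes, and 6 of 9 did not overlap, against 59.8%, both near the background. Ccl5 did not pass without treated d10 replicate 2 or 3 or treated d14 replicate 2 (adjusted p up to 0.0680). Against the untreated d10 tumors, the treated d14 tumors again differed in Ccl12 alone (2.16-fold lower, −1.11 ± 0.15, adjusted p = 0.00226), while 7.83% of 18057 genes were called (2.49% lower) and 27.7% passed the test. It was also the only 1 of the 9 without overlap, against 34.1% of all genes. Without treated d14 replicate 2 that fall was −0.98 (adjusted p = 0.016). In Ccl3, Ccl4, Ccl5, Ccl8, Ccr1 and Ccr2 the treated d14 tumors thus overlapped with untreated d10 tumors, with no difference that passed the test.

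Ordered by mean level, the groups gave 3 patterns. Ccl2, Ccl7 and Ccl12 were highest at d6, with a gap to all other tumors, and the remaining neighbors in the order overlapped, apart from treated and untreated d10 tumors in Ccl2. Ccl3, Ccl4 and Ccl5 were highest in treated d14 tumors and lowest at d6. In Ccl3 every neighboring pair of groups overlapped, in Ccl4 the untreated d10 and d14 tumors were apart, and in Ccl5 the d6 tumors were apart. Ccl8, Ccr1 and Ccr2 were highest in untreated d10 tumors and lowest in untreated d14 tumors, which stood apart from the next group in Ccl8 and Ccr1. In Ccr2 the gap lay between d6 and treated d10 tumors.

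**Figure D5:**
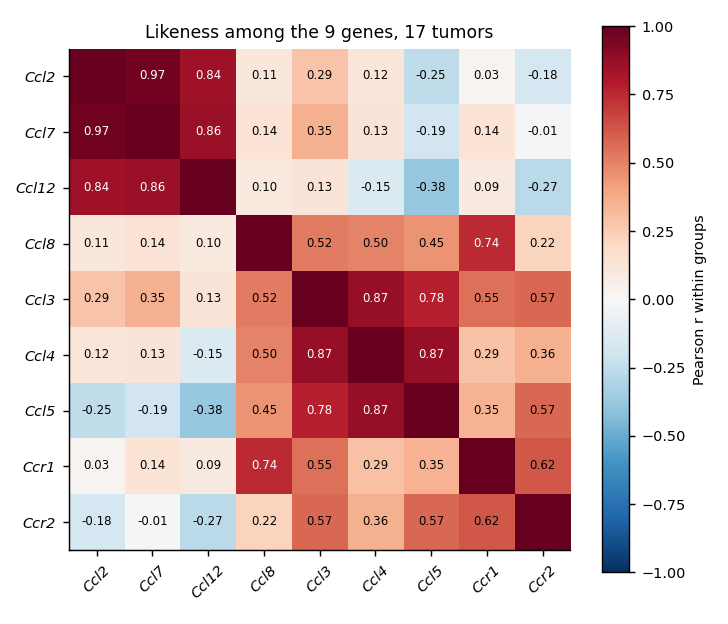
Pearson r of log2 normalized CPM between each pair of the 9 genes over 17 tumors after removal of the group means. Ccl2 and Ccl7 reached 0.97, Ccl4 and Ccl5 0.87, and Ccl2 and Ccl5 −0.25.

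The monocyte attractants varied together inside some groups but not in all. In d6, untreated d14 and treated d10 tumors, Ccl2, Ccl7 and Ccl12 ranked the tumors of a group in the same order. In untreated d10 tumors, replicate 5 was highest in Ccl2 (45.9 normalized CPM) and replicate 3 in Ccl12 (8.13). In treated d14 tumors, Ccl2 and Ccl7 had the same order, but replicate 1 was highest in Ccl2 (44.3) and replicate 3 in Ccl12 (4.08). After the group means were removed, Pearson r over the 17 tumors (12 degrees of freedom) was 0.97 between Ccl2 and Ccl7, 0.86 between Ccl7 and Ccl12, and 0.84 between Ccl2 and Ccl12. Over 9720 genes whose mean level reached 10 CPM, Ccl7 was the gene most like Ccl2 and Ccl2 the gene most like Ccl7. The second gene was Ppa1 (0.87) for Ccl2 and Stk39 (0.86) for Ccl7, and Ppa1 (0.88) came first for Ccl12, before Ccl7 and Ccl2. Ccl8, although next to Ccl12, had r = 0.10 with it and was most like Serpine2 (0.94), Cmtm3 (0.92) and Tmsb4x (0.90). These are descriptions. The untreated d10 tumors fall into 2 library sets and tumors of a group differ in depth, so those differences remain in r.

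Ccl3, Ccl4 and Ccl5 also varied together: r was 0.87 between Ccl3 and Ccl4, 0.87 between Ccl4 and Ccl5, and 0.78 between Ccl3 and Ccl5. The genes most like Ccl3 were Acod1 (0.91), which makes itaconate in activated macrophages, then Ccl4 (0.87) and Tmem140 (0.83). Ccl4 was most like Cyth1 (0.90), Slc7a8 (0.88) and Rab20 (0.88), and Ccl5 most like P2ry14 (0.94), AW112010 (0.91) and Ptpn18 (0.91). Ccr1 was most like Cd53 (0.91), a tetraspanin of leukocytes, Ctsl (0.89) and Hcar2 (0.89). Ccr2 was most like Filip1l, Cdh11 and Smarca2, each with r = 0.91. The r between Ccr1 and Ccr2 was 0.62, and that between Ccr2 and its ligand Ccl2 was −0.18.

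The other genes of the family were described from 2 fixed lists, 13 further CC ligands and 11 further CC receptors including atypical ones. From d6 to d10, 3 of 10 ligands tested were called lower and none higher, led by Ccl20 (−3.03 ± 0.28 on the log2 scale), which attracts Ccr6-bearing lymphocytes, and Ccl17 (−2.89 ± 0.42), a ligand of Ccr4. Of 10 receptors tested, 3 were called lower, with Ccr4 (−2.13 ± 0.28) and Ccr3 (−1.78 ± 0.33), the eotaxin receptor, ahead. From d10 to d14, 6 of 11 ligands were called lower, led by the eotaxins Ccl24 (−2.74 ± 0.69) and Ccl11 (−2.13 ± 0.40), as were 3 of 10 receptors, led by Ccr3 (−2.45 ± 0.51) and Ccr4 (−1.39 ± 0.43). In treated against untreated d14 tumors, 2 of 11 ligands were called higher, Ccl11 (1.56 ± 0.25) and Ccl22 (1.54 ± 0.25), and 3 of 11 receptors, led by Ccr4 (2.49 ± 0.40), on which Ccl17 and Ccl22 act, and Ccr9 (1.53 ± 0.36). The median of these receptors was 1.06 against 0.78 over the 9 genes. Over all genes tested, 2.66% were called lower from d6 to d10 and 3.45% lower from d10 to d14. In treated against untreated d14 tumors, 9.07% were called higher. Between treated and untreated d10 tumors, unadjusted edgeR p was below 0.05 for 2 of 11 ligands and 4 of 9 receptors, against 13.5% of all genes. None of these ligands and receptors passed after adjustment.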

How the data were processed

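RNA of 17 AB12 tumors was sequenced as paired-end reads of 75 or 100 bases from total RNA libraries (KAPA RNA HyperPrep). Per the study's methods, the authors aligned reads to GRCm38 with TopHat2 2.0.14 and counted them in Gencode vM21 genes with HTSeq. The deposited values are raw counts for 55450 genes, whole numbers with no normalization. The strand setting of the counting is not given in the sources used here, so reads of Ccl2 and of the opposite-strand Gm17268 could be mixed where no setting was used. All columns of samples were used (0 left out).

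Groups came from the sample labels. Each comparison was fitted on its own groups, over all genes kept by filterByExpr, with TMM scaling and the quasi-likelihood test of edgeR 4.0.16 (R 4.3.3), Benjamini-Hochberg adjustment over all genes tested, and thresholds of 0.05 for adjusted p and 2-fold for change, as in the study. The interaction used the 4 groups of d10 and d14. All 9 genes passed the filter in all 8 comparisons. Levels were compared between genes per kilobase of exon. The fitting steps were tested on simulated data with known changes. The 9 genes, the marker and family lists and the tests were chosen with earlier results of these data known. All 9 genes were named and, in each comparison, up to 2 called genes with the largest change from each list of other CC genes. For likeness, the 3 genes with the highest Pearson r of log2 normalized CPM (prior count 1) were named. Alternatives were DESeq2 1.42.0, no TMM, no filter, all 5 groups in one fit, a replicate block, parts of the d10 tumors, adjusted p alone, and leaving out each tumor. Replicate numbers did not pair the tumors: correlations of same-numbered tumors ran from −0.25 to 0.14. No pair of tumors within a group was a duplicate by a chi-square test of counts. Python 3.11.15, pandas 2.3.3, scipy 1.17.1, Biopython 1.88 and matplotlib 3.10.9 were used for summaries, promoter alignment and plots. Promoter sequences are from RefSeq (GRCm38.p6), where 5 of the 9 genes matched; Ccl2, Ccl4, Ccl5 and Ccl7 were not among them. One gene of the naming rule is not reported here.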

Additional observations from a re-analysis of the deposited data

Results flagged for a closer look

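Among the 5 untreated d10 tumors, the only group large enough for a test of single samples, replicate 2 stood far from the others in Ccl3 (60.8 normalized CPM, with 30.5 to 38.1 in the other 4) and in Ccl4 (40.5, with 25.1 to 27.9). The gap to the nearest tumor was 0.748 of the whole range for Ccl3 and 0.819 for Ccl4, over Dixon's critical value of 0.71 for 5 samples. Of the 9 genes, 2 passed. A rate of about 1 in 20 by chance holds for independent genes, but Ccl3 and Ccl4 varied together (r = 0.87 within groups). The share of all genes that passed was not computed, so no conclusion is drawn from the count. The same tumor was also highest in Ccl5 (267) and Ccl8 (180). Without it, the difference from d6 to d10 in Ccl4 kept its call and that in Ccl3 did not pass the test. The interaction of treatment and day for Ccl3 was then 0.86 (edgeR adjusted p = 0.0327), within 2-fold.

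The effect of anti CTLA-4 differed between d14 and d10 by the interaction test of edgeR for 5 of the 9 genes, against 17.7% of all genes. The difference was 1.07 on the log2 scale for Ccl3, 0.93 for Ccl4, 1.16 for Ccl8, 1.15 for Ccr1 and 1.34 for Ccr2. Treated d14 tumors were above untreated ones in all 5 genes without overlap, while at d10 the treated and untreated tumors overlapped in each. At d14, 51.9% of all genes did not overlap either. The interaction test also called 7 of 10 macrophage, 8 of 10 T cell and 6 of 6 fibroblast markers higher. Their part in the differences of the 5 genes was not tested. With 1 tumor left out the calls of Ccl3 and Ccl8 were lost in 8 and 11 of 14 fits. Against d10 replicates 4 and 5 only, which share the library set of the treated d10 tumors, Ccl3 (0.73, adjusted p = 0.0529) and Ccl4 (0.85, adjusted p = 0.0522) did not pass and Ccr1 (0.94) was within 2-fold.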

How the results depend on the processing

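Over the 9 genes and 8 comparisons, leaving out 1 tumor kept direction and call (both thresholds jointly) in 524 fits, lost a call in 22, gained one in 10 and turned the direction in 20; other settings gave 473, 3, 31 and 15. The number of the 9 genes called ran, with 1 tumor left out, from 5 to 6 (d10 against d6), 0 to 1 (d14 against d10), 4 to 4 (d14 against d6), 0 to 0 (treated against untreated d10), 0 to 2 (treated against untreated d14), 1 to 1 (treated d14 against treated d10), 0 to 1 (treated d14 against untreated d10) and 2 to 5 (interaction). For d14 against d10 the count was 2 with DESeq2, 2 with all 5 groups in one fit, 2 with a replicate block, 3 with d10 replicates 1 to 3 only and 4 with adjusted p alone. With adjusted p alone it was 7 for d14 against d6, 5 for treated against untreated d14 and 5 between treated groups. Treated against untreated d14 gave 2 with all genes with at least 1 count and 2 with all groups in one fit, treated d14 against untreated d10 gave 0 without TMM, and the interaction gave 2 (Ccl8 and Ccr2) with d10 replicates 4 and 5 only. With the replicate block, Ccl3 from d6 to d10 (1.08, adjusted p = 0.0174) and Ccl5 in the interaction (1.94, adjusted p = 0.0305) were called.

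Directions turned as follows, all in differences that did not pass the test. With d10 replicates 4 and 5 only, Ccr1 was −0.051 and Ccr2 −0.23 from d6 to d10, Ccl3 was 0.026 and Ccl5 0.052 for treatment at d10, and Ccr1 was 0.15 and Ccr2 0.30 for treated d14 against untreated d10. With d10 replicates 1 to 3 only, the last comparison gave −0.031 for Ccl3 and −0.16 for Ccl5. There it gave 0.051 for Ccr1 and 0.095 for Ccr2 without TMM and −0.13 for Ccl5 with the replicate block. Ccl2 was −0.020 for treatment at d14 with all groups in one fit. The interaction of Ccl7 was −0.020 with DESeq2, −0.036 with all genes and −0.016 with all groups. With 1 tumor left out, the log2 fold change ran from −0.39 to 0.0072 for Ccl2 (d14 against d10) and −0.020 to 0.12 for Ccl7 (treatment at d10). For treatment at d14 it ran from −0.18 to 0.19 for Ccl2 and −0.12 to 0.26 for Ccl7. It ran from −0.00023 to 0.16 for Ccl4 (between treated groups) and −0.23 to 0.19 for Ccl7 (interaction). For treated d14 against untreated d10 it ran from −0.096 to 0.32 for Ccl5, −0.22 to 0.014 for Ccr1 and −0.18 to 0.073 for Ccr2. The cause was not tested.

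Counts over all genes moved most for treated against untreated d10, with 3 called by edgeR against 243 with DESeq2, 77 with all groups, 40 unfiltered, 0 without TMM, 1210 with the replicate block, 1152 against d10 replicates 1 to 3 and 96 against replicates 4 and 5. For d14 against d10 they were 1277 against 2001 with all groups and 1969 with replicates 1 to 3, for d10 against d6 1257 against 2794 with replicates 4 and 5, and for treated d14 against untreated d10 1414 against 2361 with the block, 2271 with replicates 1 to 3 and 2202 with replicates 4 and 5. With 1 tumor left out the counts ran from 281 to 1528 (d14 against d10), 810 to 1377 (d10 against d6), 0 to 115 (treatment at d10), 1172 to 2851 (treatment at d14, 2072 with all tumors), 588 to 1790 (treated d14 against untreated d10) and 1315 to 2598 (interaction, 2196 with all tumors). Without TMM the share called higher in treated d14 against untreated d10 went from 964 of 1414 to 1304 of 1586, and the median of all genes was 0.11 in that comparison and 0.16 between treated groups.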

Other observations

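Other CC genes not described above differed between the treated groups. From treated d10 to treated d14 tumors, 5 of 11 CC receptors were called higher and none lower (1601 of all 17791 genes were called higher), led by Ccr6 (2.56 on the log2 scale), a receptor of B cells and some helper T cells, and Ackr2 (1.92), a decoy receptor that takes up CC ligands. Of 6 B cell markers, 4 were called higher in the same comparison (edgeR, median 2.30 against 0.04 over all genes), with sums of 42.6 to 50.2 normalized CPM in treated d10 and 77.6 to 84.0 in treated d14 tumors. Called higher as well were 4 of 6 mesothelial markers (median 2.08, 1 called lower), 3 of 6 fibroblast, 3 of 6 endothelial and 3 of 7 neutrophil markers. All 10 macrophage markers passed the test as higher with none called. Among the ligands, Ccl28 (1.24) and Ccl22 (1.22) were called higher.

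In the interaction of treatment and day, Ackr2 (3.77 ± 0.86), Ccr4 (3.01 ± 0.51), Ccl19 (2.51 ± 0.70) and Ccl11 (2.48 ± 0.50) had the largest differences among the called genes, 2 from each list of other CC receptors and ligands. Against d6, untreated d14 tumors had less Ccr3 (−4.25), Ccl24 (−4.21), Ccr4 (−3.52) and Ccl17 (−3.38), all called. Against untreated d10 tumors, treated d14 tumors had less Ccl1 (−1.40) and Ccr3 (−1.23) and more Ccr4 (1.04) and Ccl28 (1.03).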
